A study of Arabidopsis thaliana with 3 samples.

Results

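Genes of vesicle trafficking and autophagy were examined in Arabidopsis thaliana seedlings of the ecotype Col-0 during the first hour in the auxin IAA (indole-3-acetic acid), a plant growth hormone. The genes were taken by symbol, with a leading AT removed where one stood before the family name: VPS, SYP, VAMP, EXO70, SEC, RAB, ARFA with a digit, ATG with a digit, SNX, VTI and TET with a digit. This gave 42 of the 12128 named genes with a value on all 3 arrays: 12 TET, 11 SEC, 10 VPS, 7 ATG, 1 SYP and 1 RAB gene. No named gene of the VAMP, EXO70, ARFA, SNX or VTI families was among them. The choice applied names alone, but it was made with earlier results of these data known. It also took in 3 SEC genes whose products work elsewhere: SECA2 and SECE1, of the protein translocases inside plastids, and SEC (SECRET AGENT), an enzyme that attaches a sugar to other proteins.

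Seeds were kept at 4 °C for 48 hours and the seedlings had then grown for 4 days in darkness at 25 °C on medium with 1% sucrose. They were covered with 10 µM IAA in 0.1% ethanol, or with 0.1% ethanol alone, and were frozen after 20, 40 or 60 minutes. Each time had 1 array with 2 channels, ethanol seedlings in channel 1 and IAA seedlings in channel 2, and whole seedlings were pooled, about 500 seeds being sown for a sample. There were no replicates, so the error of a value at a single time could not be estimated and the value has no test.

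Eukaryotic cells move membrane proteins between compartments in vesicles. RAB GTPases and their exchange factors mark the compartments, tethers such as the exocyst hold a vesicle at its target, and SNARE proteins, helped by Sec1/Munc18 proteins, fuse the membranes. ESCRT complexes sort ubiquitinated membrane proteins into multivesicular bodies on the way to the vacuole, and in Arabidopsis the PIN auxin carriers are among the proteins that travel by these routes. In autophagy, ATG8 proteins are joined to a membrane lipid and cytoplasm is enclosed for delivery to the vacuole. Tetraspanins are small membrane proteins that gather other proteins into membrane domains, and TET8 is a marker of plant extracellular vesicles.

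The values are log2 ratios of the channels as deposited. The labels do not state the numerator. A positive value likely means more transcript with IAA, because the auxin-induced genes GH3.1 and HAT2 stood between 2.30 and 3.54 at all 3 times and IAA was the second channel. The robust SD over all genes and unnamed probes was 0.165 at 20, 0.221 at 40 and 0.110 at 60 minutes. No level of a transcript can be read from ratios, so that the labelled tissue could not be checked against its markers. Of 20 marker genes of cell and tissue types, 4 were measured, between -0.54 and 0.26. The root hair expansins EXPA7 and EXPA18 were negative at all 3 times. Of the genes of green tissue and light, PORB was positive at all 3 times and LHCB4.1 lay on both sides of 0. The part of these cell types in the ratios below was not tested. In RNA of whole seedlings, fewer cells of a type and less RNA per cell cannot be told apart.

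Of the 42 genes 41 stayed under 1.5-fold throughout the hour, and 18 stayed within 1.1-fold at all 3 times (23.5% of all named genes). A ratio of 1.1, such as that of RAB6A at 40 minutes, was counted as outside 1.1-fold. On the log2 scale their medians over the 3 times were -0.04, 0 and -0.01, beside 0, 0.03 and 0.01 for all named genes. Above 0 lay 18 of the 42 at 20 minutes (47.6% of all named genes), 19 at 40 (53.1%) and 17 at 60 (51.1%), and below 0 lay 22 (48.7%), 19 (43.8%) and 22 (42.6%). Within 1.1-fold of equality lay 28 of the 42 at 20 minutes, 27 at 40 and 35 at 60, which is 66.7%, 64.3% and 83.3% of them, beside 58.8%, 46.8% and 69.5% of all named genes. The robust SD across the 42 genes was 0.17 at 20 minutes, where that of all named genes was 0.16, but 0.12 against 0.22 at 40 minutes and 0.07 against 0.11 at 60 minutes. The families differed in this. The VPS genes were the more spread, with a robust SD of 0.28 at 20, 0.29 at 40 and 0.11 at 60 minutes and with 5, 4 and 7 of 10 within 1.1-fold. These are descriptions of 3 arrays, with no test.

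**Figure D1:**
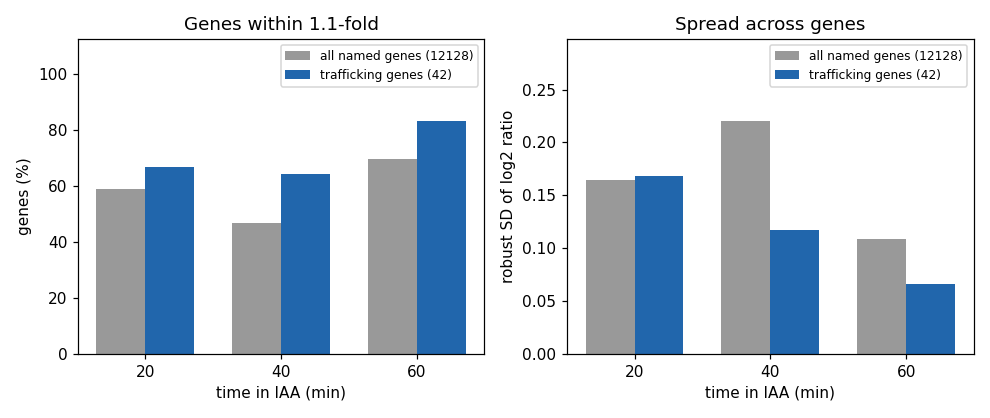
Left, the share of genes (%) within 1.1-fold of a ratio of 1, and right, the robust SD of the log2 ratio across genes, at 20, 40 and 60 minutes for all 12128 named genes (grey) and the 42 trafficking genes (blue). The trafficking genes have the larger share at each time, 64.3% against 46.8% at 40 minutes, and the smaller SD at 40 and 60 minutes.

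At the threshold of 1.5-fold a single member stood out, the tetraspanin gene TET4. On the positive side there were 0 members at 20 minutes (1.24% of all named genes), 0 at 40 (5.73%) and 1 at 60 (2.24%). On the negative side there were 0 at 20 minutes (1.28%), 1 at 40 (1.38%) and 0 at 60 (0.33%), and TET4 was the gene in both cases. At 2-fold there were 0 members at any time, beside 1.88% of all named genes at 1 or more times. At 1 or more times 10.8% of all named genes passed 1.5-fold, against 1 of the 42. At 40 minutes, where 695 named genes were at least 1.5-fold positive, none of the 42 genes was among them.

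The mean over the 3 times addresses lasting differences between the IAA and the ethanol seedlings. Of the 42 genes 0 passed limma's test of the mean ratio on either side at an adjusted p under 0.05, and 0 passed at an unadjusted p under 0.05, beside 0.0869% of all genes and probes past the adjusted threshold on the positive side, 0% on the negative side and 4.57% past the unadjusted one. The means lay between -0.17 ± 0.25 for ATG8C and 0.13 ± 0.27 for the exocyst gene SEC3B (SD over 3 time points), and both of these means were smaller than their own spread. SECE1, at -0.12 ± 0.08, and VPS60.1, at -0.08 ± 0.03, had means larger than their spread but did not pass. The same held for ATG8E, at -0.049 ± 0.035, and SEC22, at 0.019 ± 0.0165. Among the 42 genes the lowest unadjusted p in limma was 0.152, for TET6. On simulated data the test found 6% of genes given a steady change of 0.585, the size of 1.5-fold on the log2 scale. A steady change of that size could thus mostly be missed here. With limma's array weights, which gave the 60-minute array a weight of 6.7 against 0.396 and 0.377, 4 members passed: SECA2 (weighted mean 0.22) and VPS2.2 (0.25) on the positive side, and TET6 (-0.27) and VPS24.1 (-0.25) on the negative side (adjusted p = 0.0384, 0.0439, 0.0307 and 0.0439). That fit also called 2059 positive and 794 negative of all 21860 genes and probes, beside 2 positive and 2 negative of the 42 members. It rests mostly on the 60-minute array, where SECA2 stood at 0.24, VPS2.2 at 0.29, TET6 at -0.29 and VPS24.1 at -0.27. These adjusted p-values thus come close to a test at a single time, for which there was no replicate.

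Members on the same side at all times were counted next. TET8 was positive at all 3 times, and ATG8C, ATG8E, SECE1, TET15 and VPS60.1 were negative at all 3. These are 1 and 5 of 42, beside 12.9% and 8.83% of all named genes. The other 36 lay on both sides of 0 over the hour or stood at 0 at some time.

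**Figure D2:**
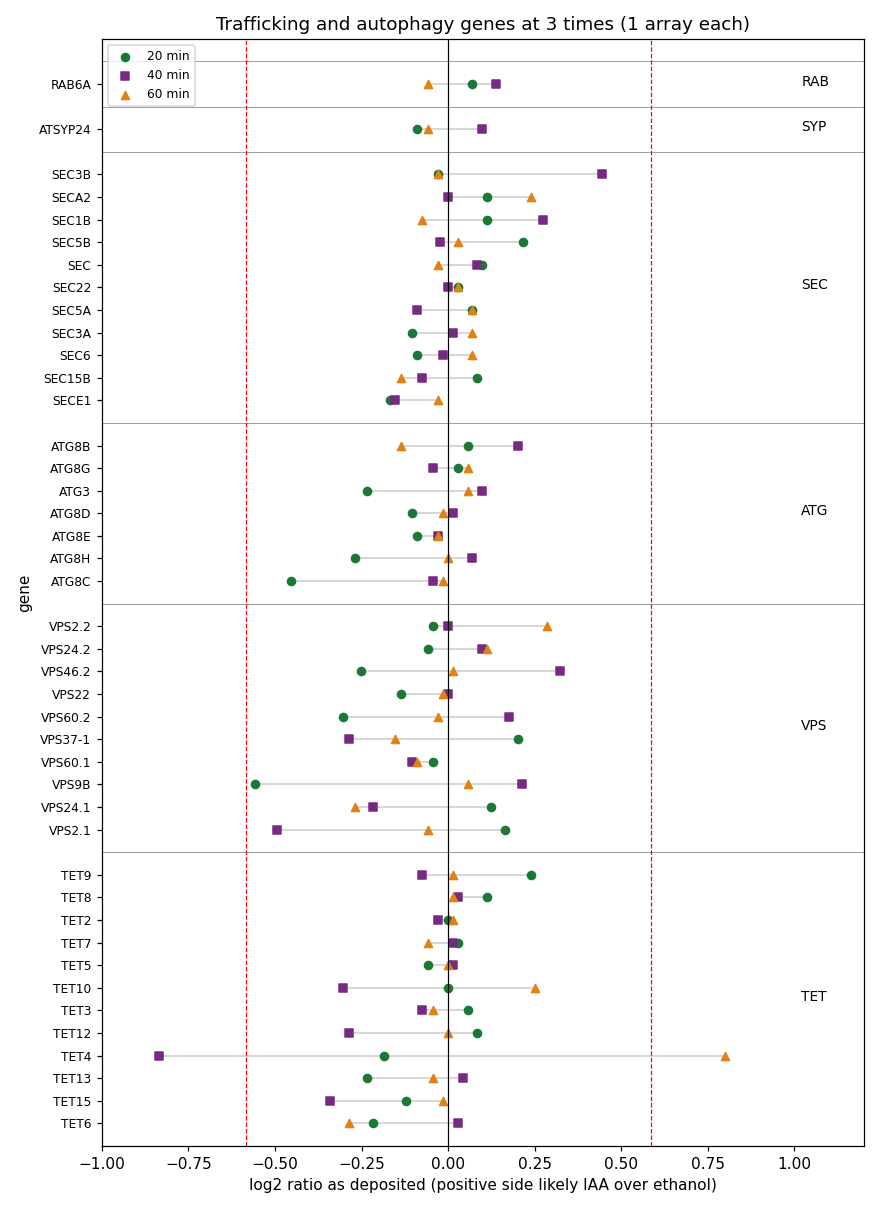
The log2 ratio as deposited (horizontal axis) of each of the 42 genes at 20 minutes (green circles), 40 minutes (purple squares) and 60 minutes (orange triangles), ordered within each family by mean, with grey bars from the lowest to the highest value and red dashed lines at 1.5-fold. Only TET4 crosses a dashed line, at -0.84 and 0.80, and VPS9B comes nearest among the rest at -0.56.

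Of the tetraspanins, 12 were measured, and their medians were 0 at 20, -0.05 at 40 and 0 at 60 minutes. TET4 (AT5G60220, on chromosome 5) had a log2 ratio of -0.18 at 20, -0.84 at 40 and 0.80 at 60 minutes. The last pair are ratios of 0.56 and 1.74, on opposite sides of equality. At 40 minutes 37 of the 12128 named genes were lower than TET4, and at 60 minutes 104 were higher. It was 1 of 7 named genes, 0.0577%, past 1.5-fold both ways in that order, negative first and positive 20 minutes later. Genes past 1.5-fold on both sides at some pair of times were 1 of the 42 and 0.536% of all named genes. Its mean was -0.07 ± 0.82 (SD over 3 time points). The sign of that mean rests on the 40-minute array, and without it the mean was 0.31. A single probe stands for TET4. The 20 probes nearest to it in probe number had medians of -0.04 at 40 and -0.07 at 60 minutes, and after subtracting them TET4 stood at -0.79 and 0.87. An effect of position on the array was not tested, because it is not given whether probe numbers follow position.

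The next widest tetraspanin was TET10, at 0, -0.30 and 0.25 over the 3 times, on the same sides as TET4 at 40 and 60 minutes but under 1.5-fold at both. TET15 stood at -0.12, -0.34 and -0.01, and TET12 at 0.08, -0.29 and 0. These 4 genes, TET4 included, were the only tetraspanins beyond 1.1-fold at 40 minutes, all on the negative side. The other 8 of the 12 lay within 1.1-fold, as did 46.8% of all named genes. At 40 minutes 7 of the 12 were below 0, beside 43.8% of all named genes.

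TET6 and TET15 tied for the lowest mean of the tetraspanins, -0.16. The values of TET6 were -0.22, 0.03 and -0.29. Its close relative TET5, which acts redundantly with it in organ growth, stood at -0.06, 0.01 and 0. TET13, known from root development, stood at -0.23, 0.04 and -0.04. The gap between TET5 and TET6 has no test, since each is a single probe on single arrays.

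The vesicle marker TET8 stood at 0.11, 0.03 and 0.01, and its relative TET9 at 0.24, -0.07 and 0.01. TET3, whose product has been found at plasmodesmata, stood at 0.06, -0.07 and -0.04. The remaining TET2 and TET7 lay between -0.06 and 0.03 at every time. Within 1.1-fold lay 8 of the 12 tetraspanins at 20 minutes, 8 at 40 and 9 at 60 (58.8%, 46.8% and 69.5% of all named genes).

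**Figure D3:**
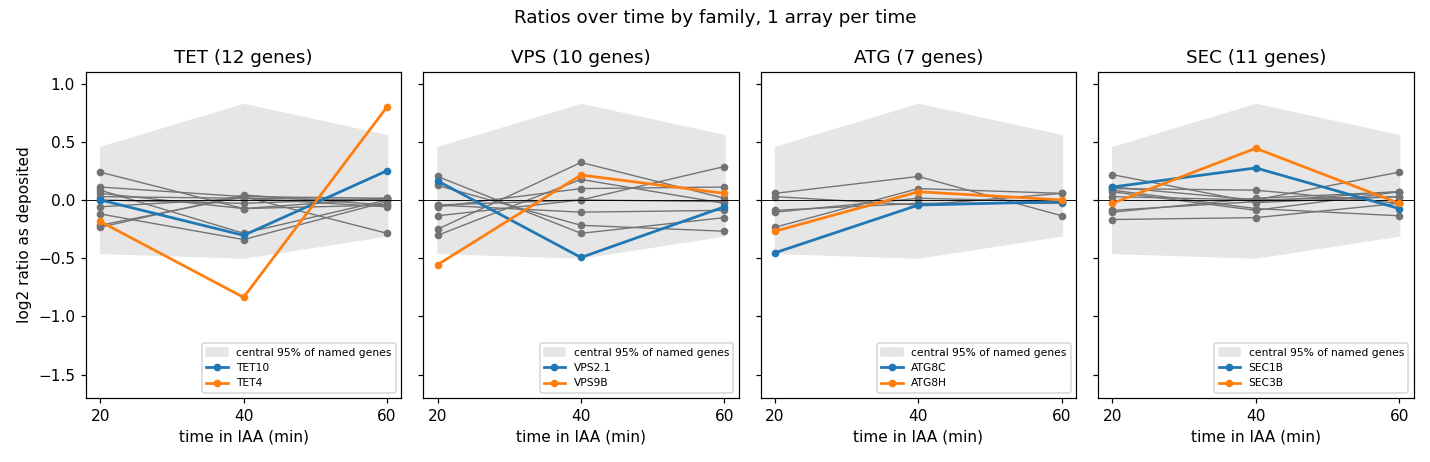
Log2 ratios as deposited (vertical axis) against time in IAA in minutes for the TET, VPS, ATG and SEC genes, 1 line per gene, with the pair of widest range in each family in colour and the central 95% of all named genes shaded. TET4 leaves the shaded range at 40 minutes (-0.84) and at 60 minutes (0.80), and VPS9B at 20 minutes (-0.56).

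The 10 VPS genes had medians of -0.05, 0 and -0.02, and 9 of them encode parts of the ESCRT machinery. VPS37-1, of ESCRT-I, which gathers ubiquitinated cargo, stood at 0.20, -0.29 and -0.15. VPS22, of ESCRT-II, which links the first complex to ESCRT-III, stood at -0.14, 0 and -0.01. The other 7 belong to ESCRT-III, whose filaments cut off the inner vesicles, and they ranged from -0.30 to 0.16 at 20 minutes, from -0.49 to 0.32 at 40 and from -0.27 to 0.29 at 60.

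Several ESCRT-III subunits have a pair of gene copies on the array. VPS2.1 stood at 0.16, -0.49 and -0.06, and its copy VPS2.2 at -0.04, 0 and 0.29. VPS24.1 stood at 0.12, -0.22 and -0.27, and its copy VPS24.2 at -0.06, 0.10 and 0.11. In both pairs the first copy was the higher one at 20 minutes and the lower one at 40 and 60 minutes, with gaps of 0.21, -0.49 and -0.35 for VPS2 and 0.18, -0.32 and -0.38 for VPS24.

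VPS60.1 stood at -0.04, -0.10 and -0.09, and VPS60.2 at -0.30, 0.18 and -0.03, so that this pair had the same order of signs in its gaps, 0.26, -0.28 and -0.06. VPS46.2 (CHMP1A), which in Arabidopsis acts in the vacuolar sorting of PIN carriers, stood at -0.25, 0.32 and 0.01. No gap between copies reached 1.5-fold at any time. Near-identical copies may share signal on an array, and probe sequences were not analysed here.

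VPS9B, a homologue of VPS9A, the exchange factor that activates RAB5 GTPases on endosomes, had the lowest value of any member at 20 minutes. It stood at -0.56, 0.21 and 0.06. A ratio of 0.68 at 20 minutes is just short of 1.5-fold, and 180 named genes were lower there.

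Of the 10 VPS genes 7 were on opposite sides of 0 at 20 and 40 minutes, as were 23 of the 42 and 53.4% of all named genes. Across the 42 genes, Spearman's rho was -0.299 between 20 and 40 minutes, -0.179 between 20 and 60 and -0.065 between 40 and 60. Over all 12128 named genes it was -0.165, -0.015 and 0.233. Genes are not independent replicates, and each pair of times is a pair of arrays. Pearson's r between 40 and 60 minutes was -0.430 over the 42 genes and 0.020 without TET4, so that this value rests on 1 gene.

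The 7 ATG genes had medians of -0.10 at 20, 0.01 at 40 and -0.01 at 60 minutes, with 4, 6 and 7 of the 7 within 1.1-fold (58.8%, 46.8% and 69.5% of all named genes). ATG3, the enzyme that passes ATG8 to its lipid, stood at -0.23, 0.10 and 0.06. The other 6 are ATG8 genes. ATG8C (AT1G62040) had the lowest value of these, and stood at -0.45, -0.04 and -0.01, and ATG8H at -0.27, 0.07 and 0.

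ATG8D stood at -0.10, 0.01 and -0.01, and ATG8E at -0.09, -0.03 and -0.03. ATG8B, at 0.06, 0.20 and -0.14, and ATG8G, at 0.03, -0.04 and 0.06, were the ATG genes above 0 at 20 minutes. Thus 5 of 7 ATG genes were below 0 at 20 minutes, beside 48.7% of all named genes. At 60 minutes the ATG genes ranged from -0.14 to 0.06.

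Of the exocyst, the tether of vesicles at the plasma membrane, 6 genes were measured. SEC3B, an exocyst subunit gene next to SEC3A on chromosome 1, stood at -0.03, 0.44 and -0.03, and had the highest 40-minute value of all 42 genes. SEC3A stood at -0.10, 0.01 and 0.07. The gap between these neighbours was 0.43 at 40 minutes and at most 0.10 at the other times, under 1.5-fold throughout.

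SEC5A stood at 0.07, -0.09 and 0.07, SEC6 at -0.09, -0.01 and 0.07, and SEC15B at 0.08, -0.07 and -0.14. SEC5B, the single member with 2 probes, stood at 0.22, -0.02 and 0.03 as their mean, and the probes read 0.38 and 0.06 at 20 minutes. Except for SEC3B at 40 minutes and SEC5B at 20, the exocyst genes kept within 1.1-fold.

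Among fusion factors, SEC1B, a Sec1/Munc18 gene, stood at 0.11, 0.28 and -0.07. The SNARE gene SEC22, of traffic between endoplasmic reticulum and Golgi, stood at 0.03, 0 and 0.03, the narrowest range of all 42 genes. The syntaxin-type gene ATSYP24 stood at -0.09, 0.10 and -0.06, and RAB6A (RABH1B), a RAB GTPase gene of the Golgi, at 0.07, 0.14 and -0.06. Of the plastid genes, SECE1 had the lowest mean of the SEC family, -0.12, with values of -0.17, -0.15 and -0.03, and SECA2 stood at 0.11, 0 and 0.24. SEC stood at 0.10, 0.08 and -0.03.

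Other genes of the same routes were taken from a list of 215 symbols, of which 26 genes were measured beside the 42: 13 RAB regulators, 3 genes of clathrin coats and adaptors, 3 of further SNAREs and their regulators, 3 of tethers and the Golgi, 2 of vacuolar sorting and 2 of autophagy control. The list also held ARF regulators and auxin carriers, and 0 of their symbols matched a gene measured under a name. Of the 26 genes 0 passed limma's test of the mean at an adjusted p under 0.05 and 0 at an unadjusted p under 0.05. Of all genes and probes 0.0869% passed the adjusted threshold on the positive side, 0% on the negative side, and 4.57% the unadjusted one. At least 1.5-fold were 1 on the negative side at 20 minutes (1.28% of all named genes) and 1 on the positive side at 40 (5.73%). The first was AT2G28390 (MON1), part of the factor that exchanges RAB5 for RAB7, at -0.64, -0.12 and 0.15, which also had the lowest mean of the 26. The second was ATYKT62, a SNARE gene, at -0.43, 0.88 and -0.14, while its copy YKT61 stood at 0.07, 0 and -0.18.

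The RAB regulators measured were 13 PRA1 genes, whose products bind prenylated RAB proteins in membranes. On the earliest array 11 of 13 were above 0 at 20 minutes (47.6% of all named genes), with a median of 0.28 and the highest value, 0.56, in PRA1.B6. PRA7 (PRA1.F2) stood at 0.55, PRA1.B2 at 0.50 and PRA8 (PRA1.F3) at 0.48 at that time, and none of the 13 reached 1.5-fold. At 40 minutes 10 of 13 were below 0 (43.8% of all named genes), with a median of -0.12, and at 60 minutes all 13 were within 1.1-fold (69.5%). PRA1.G2 had the highest mean of the 26 genes, 0.12.

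After subtracting the median of the 20 nearest probe numbers, 10 of the 13 PRA1 genes were more than 1 rounding step of the ratios (0.0144 on the log2 scale) above 0 at 20 minutes, and 11 were more than 1 step below 0 at 40 minutes. The closest PRA1 probes were 90 probe numbers apart. Whether probe numbers follow position on the array is not given, so an effect of position was not tested. The PRA1 genes are relatives in sequence and may share signal, which was not tested.

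**Figure D4:**
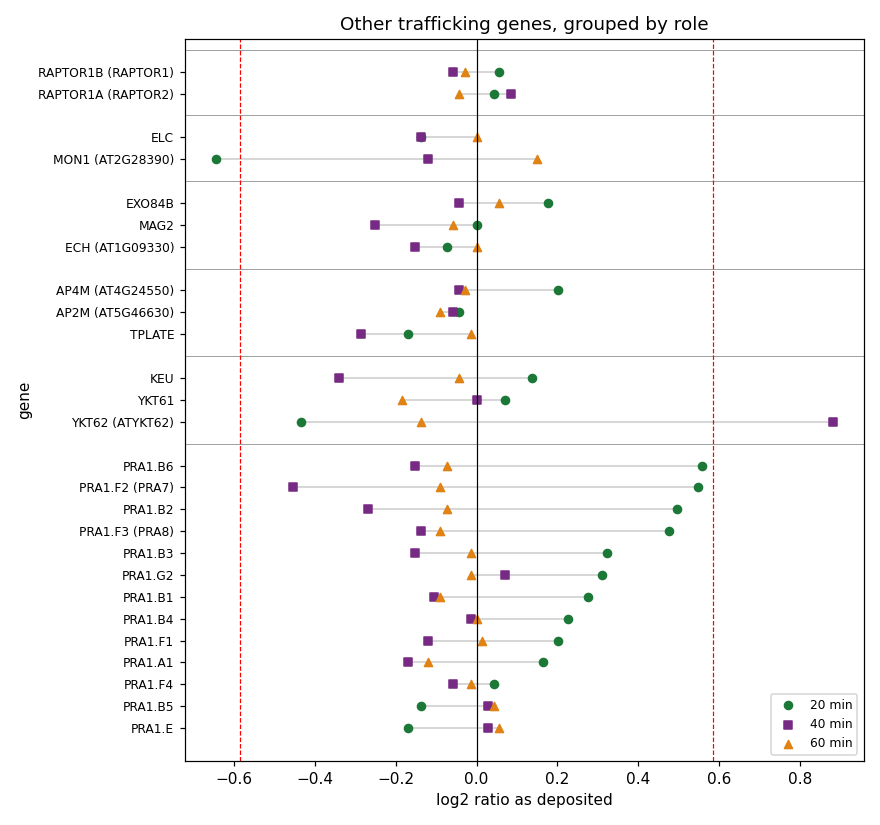
The log2 ratio as deposited (horizontal axis) of 26 further trafficking genes at 20 minutes (green circles), 40 minutes (purple squares) and 60 minutes (orange triangles), in blocks by role with the 13 PRA1 genes at the bottom, and red dashed lines at 1.5-fold. In 11 of the 13 PRA1 genes the 20-minute value lies above 0, up to 0.56, while ATYKT62 at 0.88 and MON1 at -0.64 cross the dashed lines.

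Outside the PRA1 genes, all 3 genes of clathrin coats and adaptors and all 3 of tethers and the Golgi were below 0 at 40 minutes. Of all 26 genes 20 were below 0 there, 5 above and 1 at 0, and of all named genes 43.8% were below 0. The genes of clathrin coats, adaptors, tethers and the Golgi stood under 1.5-fold at all 3 times. TPLATE, an adaptor of clathrin-mediated endocytosis, stood at -0.17, -0.29 and -0.01, and the clathrin adaptor gene AT5G46630 (AP2M) at -0.04, -0.06 and -0.09. AT4G24550 (AP4M), of another adaptor complex, stood at 0.20, -0.04 and -0.03. The tether gene MAG2, of traffic from Golgi to endoplasmic reticulum, stood at 0, -0.25 and -0.06, and AT1G09330 (ECH), of the trans-Golgi network, at -0.07, -0.15 and 0. KEU, a Sec1/Munc18 gene of cell plate formation and a relative of SEC1B, stood at 0.14, -0.34 and -0.04, on the other side from SEC1B at 40 minutes. EXO84B, another exocyst gene, stood at 0.18, -0.04 and 0.06. RAPTOR1, a partner of the TOR kinase that restrains autophagy, stood at 0.06, -0.06 and -0.03.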

How the data were processed

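The deposited values were 1 table of 21939 probes on 3 two-colour arrays, in log2 units; back-transformed, all were ratios rounded to 2 decimals. The sources used here do not give numerator, dyes, background correction, normalization or array model. Without spot intensities, which were not used here, the number of arrays limits the precision. Per the labels, nothing says whether times came from separate cultures, so p-values measure the spread between these arrays.

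Probes were named through the platform annotation and RefSeq gene names (TAIR10.1). There were 12195 probes with 1 gene and 1 with several, and 9743 were unlisted. Probes of a gene were averaged, giving 12128 named genes and 9732 unnamed probes, with no filter on low values. The mean ratio was tested two-sided against 0 by limma (version 3.58.1, R 4.3.3) with Benjamini-Hochberg adjustment over 21860 features. Its spread holds change over time as well as error. On simulated data with steady changes it found 50% of genes raised by 1, 66% of genes lowered by 1 and 86% of genes raised by 2 (log2). There 1 of 105 calls was false. The deposited data gave 19 calls, and the adjustment depends on the number of changed genes, so these shares may not carry over.

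The members and lists were chosen with earlier results of these data known. Of 215 listed symbols 159 had 1 gene, 26 of them measured beside the members, and 2 were left out because the symbol names another gene. Named are members at 1.5-fold, all TET, VPS and ATG members, and the highest and lowest mean of each other family. Some others named were chosen after their values were seen. Promoter motifs were not analysed here. Alternatives were leaving out arrays, scaling, centring, array weights, named genes alone, another fold, probe choice and current symbols, and, added after seeing the data, subtracting neighbouring probes.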

Additional observations from a re-analysis of the deposited data

Results flagged for a closer look

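TET4 passed 1.5-fold on the negative side at 40 minutes (-0.84 on the log2 scale) and on the positive side at 60 minutes (0.80), a difference of 1.64. Each time had 1 array, so the difference was not tested. Among all named genes 0.536% passed 1.5-fold on both sides at some pair of times.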

How the results depend on the processing

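No paired analysis was possible because each time has 1 array and the labels give no replicate numbers. The number of trafficking genes past limma's test was 0 on each side with any array left out, with scaled arrays and with named genes alone, and 2 on each side with array weights. With an array left out or with scaled arrays 0 of all genes and probes passed on either side, where 19 passed on the positive side otherwise, so these zeros say nothing about stability. At 2-fold instead of 1.5-fold, 0 members remained at 40 minutes and 0 at 60 minutes, TET4 being the gene lost. Scaling all arrays to a common median absolute deviation, centring them or choosing by current symbol moved none of the 12 medians by more than a rounding step and none of the 6 counts at 1.5-fold. Scaled, TET4 stood at -0.61 at 40 and 1.16 at 60 minutes. The sign of its mean, -0.07, turned with scaling (0.12) and with array weights (0.66), and with 1 array left out the mean lay between -0.51 and 0.31. Members negative at all times numbered 5, and 6 with scaled or centred arrays. For SEC5B the probe with the smaller ratio gave 0.06 at 20 minutes in place of 0.22. With scaled arrays 11 PRA1 genes were above 0 at 20 minutes and 10 below 0 at 40 minutes. With neighbours subtracted these were 11 and 11, 1 of the first being within a rounding step of 0.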
